A study of Homo sapiens with 40 samples.

Results

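The comparison described here sets E1126G against WT on RASL-seq exons, and its members were all 2312 rows of 1 deposited table out of 40858 rows in the 7 tables of the series. Each row is a cassette exon, that is, an exon that is either kept in the mRNA (included) or left out (skipped) between its neighbours, read by 1 set of probes. The cells were HEK293 Flp-in T-REx, a human embryonic kidney line with a single integration site for an inducible transgene. Every group carried a transgene for Rpb1, the large subunit of RNA polymerase II, in a form resistant to α-amanitin. In the WT group that transgene had no further substitution, and in the mutant groups it also had E1126G, R749H or H1106Y. All groups received doxycycline for 12 to 16 h to switch the transgene on and then α-amanitin for 42 h, so that the endogenous polymerase was blocked in the controls too. WT and E1126G had 3 RASL-seq libraries each. RNA-seq, used below as a second measurement, had 2 libraries each. RNA was poly(A)+ in both assays. The labels call the RNA-seq samples biological replicates but tie no RASL-seq library to a culture of its own, so that its p-values may measure technical spread alone. The identity of the cells against marker genes, the level of the transgene and GRO-seq were not analysed here, since the tables used hold ratios of splice forms and no expression levels.

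RNA polymerase II transcribes pre-mRNA while splicing factors bind to it, and an exon can be joined to its neighbours before or after the competing splice sites downstream have been made. E1126G is known in the field as a fast elongating form of the enzyme, R749H and H1106Y as slow forms. Cassette exons with weak splice sites are the classical readout of elongation rate, and the question of the comparison was which of them change when the polymerase carries E1126G. RASL-seq ligates pairs of DNA probes that lie side by side on a chosen exon-exon junction and counts the ligation products by sequencing. The measured quantity was the ratio of inclusion to skipping products, printed below as the inclusion, that is, inclusion products as a percentage of both kinds. The change is given in percentage points of inclusion or as log2 of the E1126G ratio over the WT ratio. The deposited tables give 1 value per group, not per library, and the depth is unknown, so that no error over libraries can be attached to a level. The test of a change was the authors' p-value, to which a Benjamini-Hochberg adjustment over the 2312 rows was applied here, and a row with an adjusted p under 0.05 is referred to as called.

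The panel covered 1725 gene identifiers, 1703 of them with a symbol, at 2235 exon positions. A gene had 1 row in 1334 cases and 2 or more in 391, with at most 9. Some rows repeat a measurement, because an exon with alternative ends or listed under more than 1 gene carries the same values: the 2312 rows hold 2215 distinct measurements, of which 83 stand in 2 rows and 7 in 3. Exons were 14 to 6255 nt long with a median of 98 nt. WT inclusion ranged from nearly complete skipping to nearly complete inclusion, with quartiles of 16.9% and 94.9% and a median of 67.0%. The median in E1126G was 60.8%.

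In E1126G exon skipping was the more frequent change. Of the 2312 rows 1098 were called, 47.5% of the panel. Inclusion fell in 777 rows, 33.6%, and rose in 321 rows, 13.9%. Of the 889 genes with a called row, 619 had only rows that fell, 223 only rows that rose and 47 had both. Among called rows, 414 moved by at least 10 percentage points, 317 of them down and 97 up. A move of at least 25 points was seen in 71 rows that fell and 23 that rose. In 95 called rows the exon went from being mostly included in WT to mostly skipped in E1126G, and in 33 it went the other way. The remaining 684 called rows moved by less than 10 points.

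The centre of the panel lay below 0, and so did that of the exons that were not called. The median log2 change over all rows was -0.37, with quartiles of -1.03 and 0.31, and 63.6% of rows lay below 0. Rows called lower had a median of -1.26 and rows called higher a median of 1.08. Rows that were not called had a median of -0.11, with 57.1% below 0. The median was below 0 on each of the 23 chromosomes with rows, from -0.69 to -0.12, over 21 to 246 rows a chromosome. It was also below 0 in each of the 7 classes of WT inclusion, from -0.49 among exons included at 20% to 40% in WT to -0.27 among those at 40% to 60%. In percentage points the median was -0.66. When each change was instead tested against the panel median of -0.37, with the error implied by the authors' p-value (not to be had for MARK3, whose p is listed as 0), 535 of 2311 rows were higher and 534 lower, that is 50.05% higher against 29.2% in the calls above, a near-even balance that the centring on the median itself brings about.

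**Figure D1:**
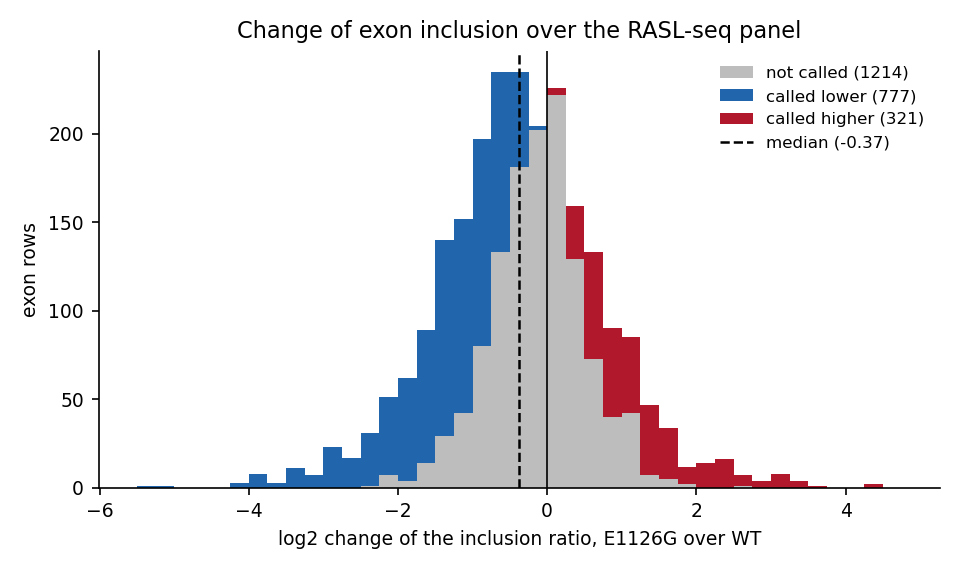
Histogram of the log2 change of the inclusion ratio (E1126G over WT) on the x axis and the number of exon rows on the y axis, in bins of width 0.25 on the log2 scale, with rows called lower in blue (777), called higher in red (321) and not called in grey (1214). The dashed line is the median of -0.37; the left flank is wider and carries more called rows than the right.

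Short exons lost more inclusion than long ones. Among the 55 microexons of at most 27 nt the median log2 change was -0.88, and 33 fell while 6 rose. The 271 exons of 28 to 50 nt had a median of -0.75, with 126 lower and 19 higher. The 860 exons of 51 to 100 nt had a median of -0.60, with 348 lower and 77 higher. Exons over 100 and under 300 nt, 1016 rows, had a median of -0.10, with 241 lower and 191 higher, and the 110 exons of at least 300 nt had a median of -0.11, with 29 lower and 28 higher. Divided at 100 nt, 1186 exons had a median of -0.62 (507 lower, 102 higher) and longer exons a median of -0.10 (270 lower, 219 higher). Relative to the panel median the short exons stood at -0.25 and the long exons at 0.27, where opposite signs follow from centring 2 groups of nearly equal size on their joint median, so that only the distance between them is a measurement. Tested against that median, 377 exons of at most 100 nt were lower and 191 higher, and 157 longer exons were lower and 344 higher.

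With the panel ordered by length and cut into 10 groups of 220 to 241 rows, the medians were between -0.82 and -0.73 up to 72 nt, fell in size to -0.55 at 73 to 85 nt and to -0.41 from 86 to 114 nt, and were above 0 from 160 nt upwards. In the group of 160 to 204 nt, 61 rows rose and 36 fell. In the group from 205 nt, 65 rose and 47 fell. Over all 2312 rows Spearman's rank correlation between length and change was 0.30, a description across exons, which share the same libraries and in part the same genes. The difference between short and long exons was present at every level of WT inclusion: the median of exons of at most 100 nt was between -0.78 and -0.47 in the 7 classes, and that of longer exons between -0.19 and 0.08. Because no values of single libraries were used, the difference between the classes has no test over samples.

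Exon length was not the only feature that went with the change. Exons with the shortest upstream introns, as the span between the listed neighbours gives them, had higher medians than the others, among long and short exons alike. With an upstream intron of 71 to 729 nt, the shortest of 5 classes, exons over 100 nt had a median of 0.20, and 62 rose while 37 fell. With an upstream intron of 11446 nt or more, the longest class, exons over 100 nt had a median of -0.18, and 32 rose while 55 fell. In the classes between, their medians were -0.02, -0.17 and -0.16. By the whole span, long exons had a median of 0.14 in the shortest class and of -0.19 to -0.09 in the others. The upstream intron and the span thus cannot be told apart here. By downstream intron the medians were -0.09, -0.12, -0.09, 0.06 and -0.17, from shortest to longest. Exons of at most 100 nt had a median of -0.47 in the shortest class of upstream intron, where 34 rose and 80 fell. In the other classes of upstream intron their medians were between -0.76 and -0.63. For these short exons the shortest class also had the highest median by downstream intron (-0.48) and by span (-0.47). Exons whose length is a multiple of 3, which keep the reading frame whether included or not, had a median of -0.42 over 1299 rows, against -0.28 over 1013 rows of other lengths. Those lengths differ as well, with a median of 93 nt against 107 nt. Among exons of 28 to 50 nt the medians were -0.86 with the frame kept and -0.57 without, among exons of 51 to 100 nt they were -0.61 and -0.59, and among exons over 100 and under 300 nt they were -0.11 and -0.09.

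**Figure D2:**
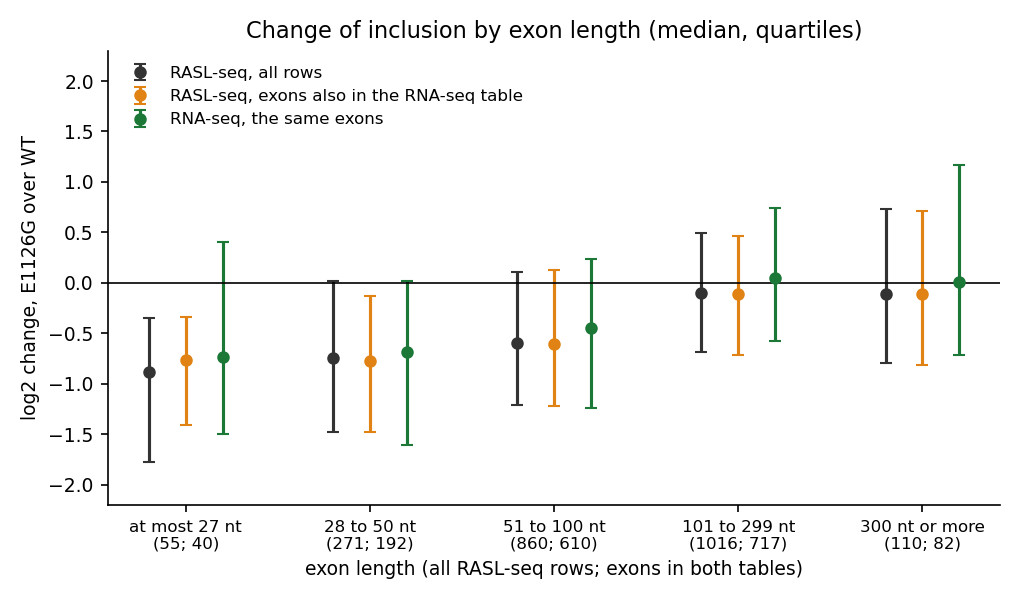
Median (points) and quartiles (bars) of the log2 change, E1126G over WT, on the y axis for 5 classes of exon length on the x axis, for all RASL-seq rows (black), the RASL-seq values of exons that also have an RNA-seq row (orange) and the RNA-seq values of those exons (green). Numbers in brackets are all RASL-seq rows and exons in both tables; the medians lie between -0.88 and -0.45 up to 100 nt and between -0.11 and 0.05 above it.

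Exons of at most 100 nt made up all but 1 of the 15 largest losses in percentage points. The greatest in points was in EPB41, protein 4.1R, which ties spectrin and actin to the membrane. Its 63-nt exon at chr1:29386934-29386996 (GRCh37), which encodes part of the spectrin-actin binding domain, was included at 82.0% in WT and 23.1% in E1126G. A 27-nt exon of MARK3, a kinase that controls microtubule stability and cell polarity, at chr14:103964839-103964865, went from 78.7% to 20.1%. The 24-nt exon of SLIT2, a secreted axon guidance ligand, at chr4:20526772-20526795, went from 73.0% to 15.7%. In these 3 cases inclusion products were the majority in WT and the minority in E1126G. The 60-nt exon of SPTAN1, αII-spectrin, at chr9:131355262-131355321, fell from 70.6% to 23.1%, so that both partners of the spectrin membrane skeleton named here lost an alternative exon.

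The other exons among the 15 largest decreases were also short in most cases. PTPN4, a tyrosine phosphatase, lost a 69-nt exon at chr2:120684174-120684242 that was near constitutive in WT (95.5%) and stood at 38.3% in E1126G. ADGRG6, an adhesion receptor needed for myelination, had 90.4% and 37.2% for its 46-nt exon. PROM1 (prominin) went from 68.7% to 16.8%, ADAM22, a neuronal receptor, from 64.9% to 21.2%, and APBA1, an adaptor of the amyloid precursor protein, from 84.7% to 34.5%. UPF3B, a factor of nonsense-mediated decay, the pathway that destroys mRNAs with premature stop codons, went from 68.1% to 22.7% for a 91-nt exon. EXOC7, a subunit of the exocyst that tethers vesicles to the plasma membrane, went from 57.2% to 14.9%, and CDK5RAP2, a centrosomal protein, from 64.6% to 22.5%. NKTR, a cyclophilin with an SR-like domain, had 91.3% and 40%, and SLC24A2, a cation exchanger, 83.9% and 41.2%. The kinase gene MAP3K8 was the one gene of the 15 whose exon was over 100 nt (224 nt, 89.3% and 34.5%). All 15 were below 50% in E1126G and above it in WT.

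Gains of inclusion reached the same size in fewer exons, and 10 of the 15 largest were in exons over 100 nt. SUOX, sulfite oxidase, had the largest, a 126-nt exon at chr12:56393117-56393242 with 10% in WT and 70% in E1126G. Its Benjamini-Hochberg adjusted p of 0.00322 is many orders larger than those of EPB41, MARK3 and SLIT2. Values as round as 10% and 70% can come from few ligation products. The counts behind them are not known, so the size of this gain is uncertain. RFC5, a subunit of the clamp loader of DNA replication, had 31.4% and 75.8% for a 126-nt exon at chr12:118455495-118455620. The 456-nt exon of SRSF3 at chr6:36567598-36568053 rose from 37.7% to 72.2%. This is the poison exon of SRSF3, which brings a premature stop codon into the mRNA of that SR protein. With E1126G most of the RASL-seq product, not corrected for probe efficiency, contained it, while in RNA-seq, given below, it remained the minority. PALLD, an actin-bundling protein, went from 17.8% to 61.8% for a 672-nt exon, and PLAG1, a zinc finger transcription factor, from 10.5% to 53.5% for one of 359 nt.

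Further gains were spread over unrelated functions. CLCN6, an endosomal chloride transporter, went from 34.3% to 72.1%, ATP2B4, a calcium pump of the plasma membrane, from 19.6% to 54.8%, and the transcription factor MYB from 6.45% to 39.1%. C11orf54 had 27% and 65.4%, and CHD5, a chromatin remodeller, 19.0% and 47.0%. Short exons among the 15 were in ALCAM, a cell adhesion molecule (39 nt, 38.1% and 77.8%), DYSF, dysferlin, a membrane repair protein (42 nt, 10.3% and 43.8%), BEND6 (64 nt, 40.7% and 73.9%) and DCUN1D4, a cofactor of cullin neddylation (56 nt, 43.6% and 74.0%). Adjusted p-values by the Benjamini-Hochberg method in this set ran up to 0.0322 (BEND6). The gains of ALCAM, ATP2B4, DYSF, BEND6 and CHD5 had larger adjusted p-values than any of the 15 decreases, of which the largest was 0.00382 by the Benjamini-Hochberg method (NKTR). As for SUOX, few ligation products may lie behind the levels of these exons and of those in MYB and NKTR. Their counts are not known, so the sizes of these changes are uncertain too.

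**Figure D3:**
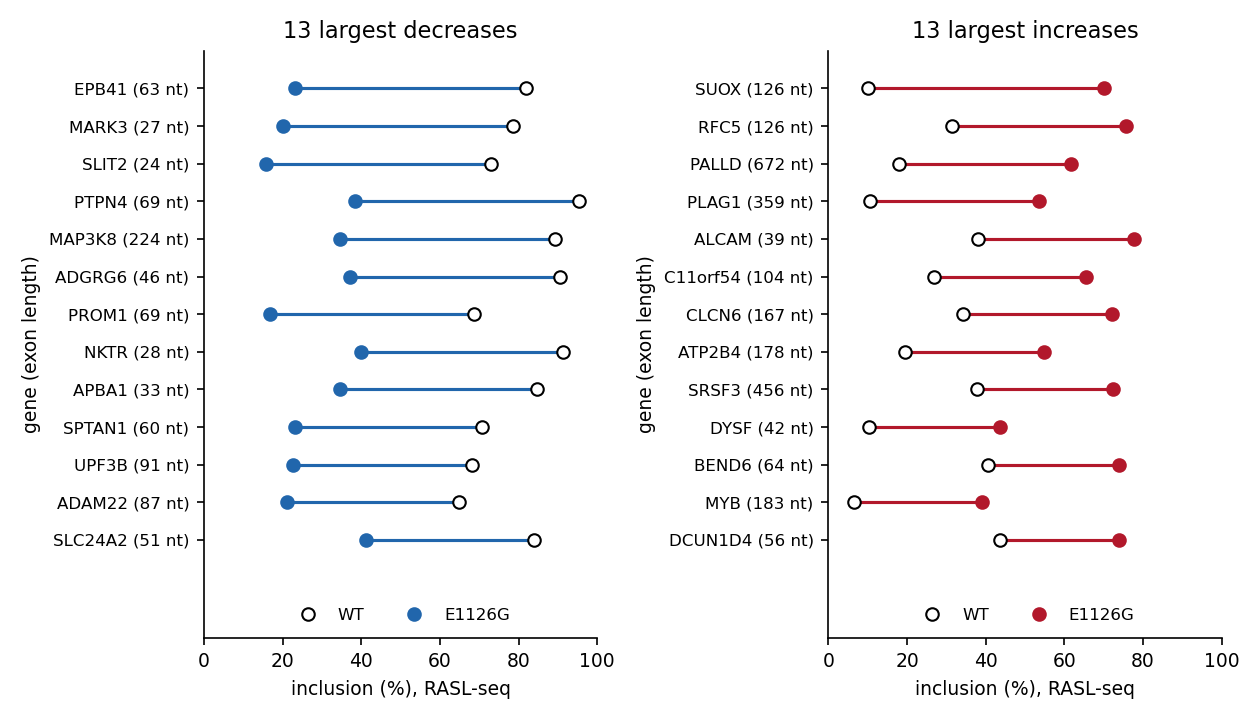
Inclusion in percent on the x axis (WT, open circles; E1126G, filled circles) of the called exons with the 13 largest decreases (left) and the 13 largest increases (right), 1 exon a line on the y axis with its length in nt. Each value comes from the pooled libraries of a group and has no error bar; the decreases start between 64.9% and 95.5%, the increases between 6.45% and 43.6%.

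Genes of the cytoskeleton moved down most often among the 12 gene lists examined, which were chosen with earlier results of these data known. Over the panel 33.6% of rows fell and 13.9% rose. Of 78 rows in 45 genes for actin, spectrin and microtubule proteins, 48 fell (61.5%) and 6 rose (7.69%), with a median of -1.01 against -0.37 for the panel. Short exons made up 74.4% of these rows, but the 20 longer ones also had a median of -0.68, with 10 lower and 1 higher. Besides EPB41 and SPTAN1, INF2, a formin that nucleates actin, went from 94.7% to 66.5% for a 57-nt exon, and UTRN, utrophin, from 89.2% to 68.3% for one of 39 nt. Calls in the falling direction also came from DST, MACF1, MAP4, MAPT, MYO5A, MYO6, KIF1B, DYNC1I2 and TPM3, which cover motors, microtubule-associated proteins and crosslinkers. The 6 that rose were in ADD3, DMD, DNM1L, FMNL2, PALLD and again EPB41, at a 57-nt exon with 21.6% and 28.7%. Tested against the panel median, 38 rows of the list were lower and 12 higher.

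Adhesion and receptor genes had 22 rows that fell (43.1%) and 9 that rose (17.6%) of 51, with a median of -0.79. Against the panel median 20 were lower and 13 higher. The fall lay in the 32 exons of at most 100 nt (median -1.04, 17 lower, 4 higher). The 19 longer ones had a median of -0.01, with 5 lower and 5 higher. Over the panel the medians of short and long exons were -0.62 and -0.10. NRCAM, a neuronal cell adhesion molecule, went from 62.8% to 31.8% for a 57-nt exon, and NUMB, an adaptor that restrains Notch signalling, from 17.7% to 4.74% for one of 33 nt. In kinases and regulators of small GTPases, 34 of 69 rows fell (49.3%) and 12 rose (17.4%), with a median of -0.60. By measurement, since some stand in more than 1 row, 31 of 62 fell and 10 rose. The 42 short exons of this list had a median of -0.85 (24 lower, 6 higher), the 27 long ones of -0.22 (10 lower, 6 higher). RAC1, a GTPase of actin remodelling, had 7.81% and 0.553% for the 57-nt exon at chr7:6438293-6438349 that defines its RAC1b isoform. NF2, the tumour suppressor merlin, had 99.6% and 96.7% for a 45-nt exon that alters its C-terminus. Both are changes of under 10 points that were among the firmest calls of the list. Against the panel median, 18 of these rows were lower and 15 higher.

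Genes of SR proteins and their relatives went against the panel. SR proteins themselves bind exons and promote their use. Of 31 rows in 20 genes, 14 rose and 7 fell, with a median of 0.31. Counted by measurement, since 1 exon of TRA2A is listed with 3 lengths, 12 of 29 rose and 7 fell, with a median of 0.19. The rise lay in the long exons, of which 11 of 18 rose and 4 fell (median 0.69), while the 13 short ones had a median of -0.09. SRSF7 (449 nt) went from 22.5% to 31.9% and TRA2B (276 nt) from 80.2% to 92.2%, the latter at an exon of the poison type described for SRSF3. BCLAF1, an SR-related nuclear protein, had 1.33% and 4.42% at a 163-nt exon, and fell at a 41-nt exon. SREK1, SON, RNPS1, SRPK2 and NKTR fell. Relative to the panel median 15 rows were higher and 3 lower.

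The other lists on RNA processing did not share that direction. Among hnRNPs and other splicing regulators, 7 of 35 rows rose and 8 fell, with a median of -0.34, which is 0.03 above the panel median. SYNCRIP went from 67.6% to 88.9% at a 160-nt exon and HNRNPD from 1.39% to 10.4% at one of 107 nt, while TIAL1, a protein that binds U-rich RNA, went from 14.8% to 5.00% at 376 nt and FMR1, the fragile X protein, from 6.12% to 1.90% at 63 nt. In genes of the core spliceosome 8 of 14 rows fell and none rose at the threshold, with a median of -0.53 (4 higher and 4 lower against the panel median). The firmest was SNRNP70, the U1 snRNP 70K protein, whose 1474-nt exon went from 72.1% to 38.4%. Of 22 rows in genes for 3' end formation and RNA surveillance, 9 fell and 4 rose, with a median of -0.57 (7 lower and 8 higher against the panel median). By measurement, since 2 of them stand in a pair of rows each, 7 of 20 fell and 4 rose. EIF4A2, a helicase of translation, had 29.4% and 16.2%, and FIP1L1, a subunit of the polyadenylation machinery, 30.5% and 14.7%.

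The remaining lists had medians between -0.40 and -0.07. Transcription elongation and chromatin genes had 18 of 57 rows lower and 14 higher (median -0.11). In that list the short exons had a median of -0.48 and the long ones of 0.41. SETD5, a chromatin regulator, fell from 29.8% to 9.18% at 39 nt, and BPTF, a subunit of a nucleosome remodelling complex, rose from 65.9% to 85.1% at 174 nt. Transcription factors and signalling effectors had 24 of 76 rows lower and 10 higher (median -0.23), with MAX, the partner of MYC, at 2.93% and 21.9% for an exon listed with a pair of lengths. Membrane trafficking genes had 11 of 41 lower and 5 higher (median -0.40). PICALM, a clathrin adaptor, went from 75.2% to 36.8% at 24 nt. Cell cycle, replication and repair genes had 16 of 51 lower and 7 higher (median -0.19), and p53 and apoptosis genes 5 of 29 lower and 3 higher (median -0.07). Against the panel median the medians of chromatin, transcription factor, cell cycle and apoptosis genes turn positive, at 0.26, 0.14, 0.18 and 0.30, and that of trafficking genes is -0.03. Tested in that way, 21 rows of chromatin genes were higher and 11 lower, 18 and 16 of transcription factors, 14 and 8 of cell cycle genes, 8 and 4 of apoptosis genes, and 10 and 7 of trafficking genes.

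**Figure D4:**
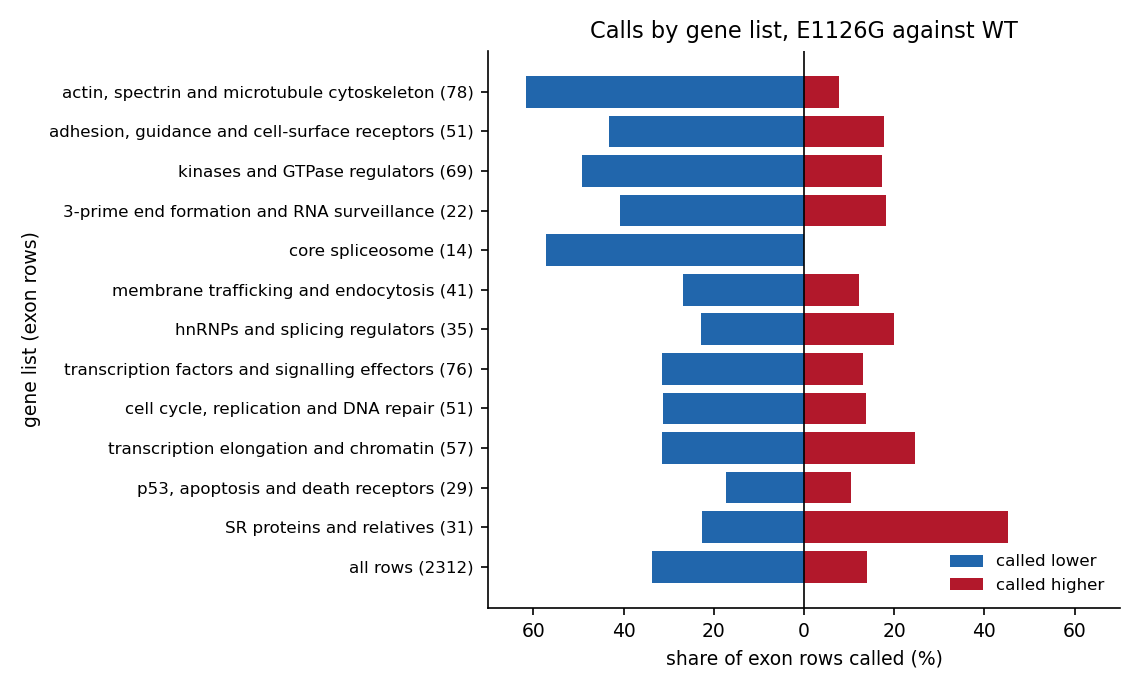
Share of exon rows called lower (blue, to the left) and called higher (red, to the right), in percent on the x axis, for 12 gene lists with their number of rows and for the whole panel on the y axis, ordered by the median log2 change of the list. Cytoskeleton genes have the longest blue bar, SR proteins and relatives are the one list whose red bar is the longer, and the panel stands at 33.6% and 13.9%.

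Several measurements of 1 gene did not always move together. Of 345 genes with 2 or more measurements, 123 had 2 or more calls: 59 had calls in the falling direction alone, 18 in the rising direction alone and 46 in both. Over the panel 28.3% of called measurements rose, so calls in both directions can meet in a gene without any link between its exons. This was not tested. In TCF7L2, a transcription factor of Wnt signalling, all 8 measurements of 4 exons were lower in E1126G and 7 were called. Its 51-nt exon at chr10:114918426-114918476 fell from 43.5% to 18.2% between the outer pair of neighbours and from 59.9% to 42.9% with a nearer one, while with the nearest it had 89.7% and 87.2% and was not called. VEGFA, a growth factor of blood vessels, lost the exons that encode part of its heparin-binding region: the 72-nt exon went from 28.2% to 10.1%, and versions of 54 and 123 nt with the same start, which share most of that measurement, from 27.6% to 9.73% and from 27.4% to 9.70%. The neighbouring 132-nt exon of VEGFA stood at 73.7% and 72.9% and was not called, while a 97-nt version with the same start rose from 22.9% to 26.0%. Against the panel median both were called higher.

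In FGFR2, a receptor of fibroblast growth factors, the mutually exclusive exons that set ligand specificity moved in opposite directions. The 145-nt exon of the IIIc form at chr10:123276833-123276977 rose from 7.86% to 21.6%, and the 148-nt exon of the IIIb form at chr10:123278196-123278343 fell from 19.9% to 6.76%. Each of these exons was measured with the other as a neighbour, so the values are not the shares of the IIIb and IIIc forms. A switch between the forms was not tested. In RFC5 the direction differed with the neighbours between which an exon was measured. Its 126-nt exon and the 364-nt exon that spans the same start (32.3% in WT, 51.8% in E1126G) both rose. Its 59-nt exon at chr12:118455800-118455858 rose from 31.3% to 49.98% when measured between the outer exons and fell from 51.1% to 24.7% when the 126-nt exon was its upstream neighbour. In MARK3 the 27-nt exon fell with either downstream neighbour (97.3% to 77.4% with the nearer one), while the 45-nt exon next to it went from 8.62% to 6.50% between the outer exons and from 30.6% to 39.9% after the 27-nt exon. Against the panel median the former difference, -0.07 on the log2 scale, was no longer called. Over the panel, 49 exon positions were measured with more than 1 pair of neighbours, and in 32 of them every measurement had the same sign. Since 63.6% of all rows lay below 0, a shared sign is frequent in any case, and its excess was not tested.

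RNA-seq of the same mutant, from libraries other than those of RASL-seq, held 1641 of the 2235 exon positions. Whether both assays used RNA of the same cultures is not stated. Over these exons the median log2 change was -0.37 in RASL-seq and -0.22 in RNA-seq. Exons of at most 100 nt had medians of -0.63 and -0.51, and longer exons of -0.11 and 0.04, so that the downward shift of short exons was present in both assays while the medians of the long exons had opposite signs. RNA-seq called 206 of the 1641 exons (12.6%, against 6.48% of all 14650 rows of that table), and RASL-seq called 839. The 171 exons called in both are 20.4% of the RASL-seq calls and 83.0% of the RNA-seq calls. In 170 of them the direction was the same, 128 lower and 42 higher.

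The single exon that was called in opposite directions was the 21-nt exon of DIAPH2, a formin, with 98.8% and 92.7% in RASL-seq and 75% and 97.1% in RNA-seq. Of the 668 exons called in RASL-seq alone, 520 had the same sign in RNA-seq, where the 467 that fell had a median of -0.63 and the 201 that rose a median of 0.55. Across the 1641 exons Pearson's r and Spearman's rank correlation of the 2 changes were both 0.59, a description of these libraries. For the log ratio in WT Pearson's r was 0.74, and WT inclusion had a median of 60.9% in RASL-seq and 75.6% in RNA-seq, so that levels are compared within an assay only. The 594 exon positions without an RNA-seq row had the same median change on RASL-seq, -0.37, and 36.5% of them were called.

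Many of the leading exons had like changes in RNA-seq. EPB41 stood at 89.7% in WT and 13.8% in E1126G, SLIT2 at 91.3% and 33.9%, MARK3 at 46.5% and 8.55%, SPTAN1 at 82.6% and 43.8% and UPF3B at 53.7% and 13.5%, all called. GPCPD1, a phosphodiesterase, had 75.9% and 35.9% in RASL-seq and 94.7% and 46.2% in RNA-seq for a 76-nt exon, and FNIP1, which binds folliculin, 41.2% and 8.98% against 91.7% and 47.6% for one of 84 nt. SRSF3 had 10.4% and 48.5% for its poison exon. The NF2 exon, which moved by under 3 points in RASL-seq, had 88.6% and 33.9% in RNA-seq, and the INF2 exon 94.3% and 35.1%. For PTPN4 (85.7% and 70%), CLCN6 (59.3% and 82.1%) and UTRN (89.6% and 85.4%) the RNA-seq change had the same sign and was not called. ALCAM had 91.8% and 95.5%, and NKTR 38.1% and 20.0%, neither called. SUOX, PALLD, PLAG1, MYB, PROM1, APBA1, DYSF, BEND6, CHD5 and SLC24A2 had no row at the exon in RNA-seq.

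**Figure D5:**
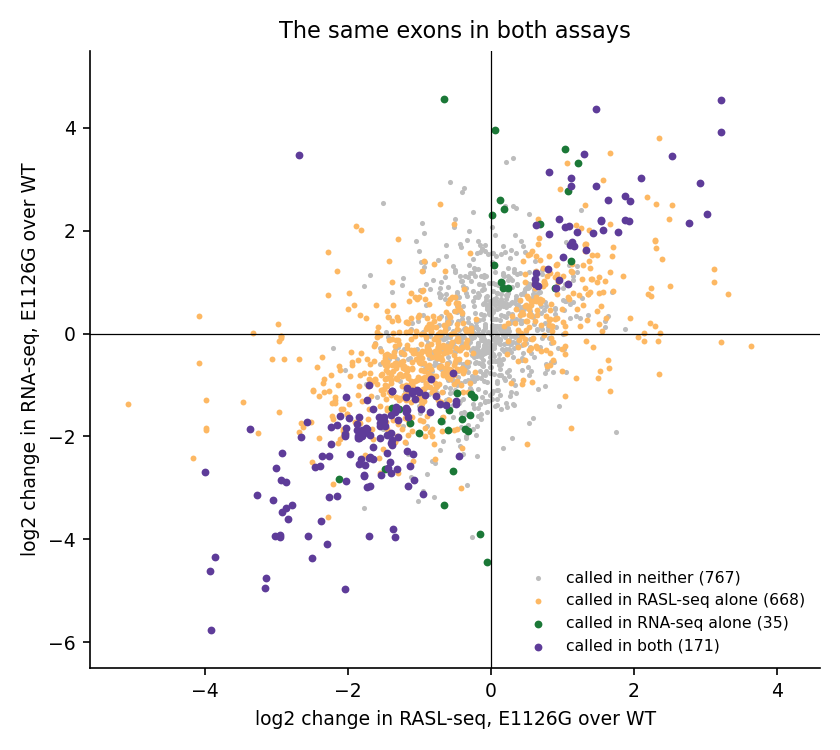
Log2 change, E1126G over WT, in RASL-seq (x axis) and RNA-seq (y axis) for the 1641 exon positions in both tables, each point an exon, coloured by the assay in which it was called. Points called in both (171, purple) have the same sign on both axes except for 1, the exon of DIAPH2.

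The panel was also read in the slow mutants, in comparisons that use the same WT libraries, so that their values are only set side by side. R749H had 44.1% and H1106Y 61.9% of its rows called. Over the 1927 rows present in all 3 tables the median log2 change was -0.39 in E1126G, 0.03 in R749H and -0.34 in H1106Y, so that H1106Y too had a median under 0. In exons of at most 100 nt the medians were -0.62, -0.09 and -0.40 over each table's own rows, and in longer exons -0.10, 0.20 and -0.23. The spread between quartiles over the shared rows was 1.33 in E1126G, 1.47 in R749H and 2.33 in H1106Y. EPB41 was at 53.2% in R749H and 52.6% in H1106Y, between WT at 82.0% and E1126G at 23.1%. MARK3 was at 47.2% and 12.4%, and SLIT2 at 26.0% and 9.51%. SRSF3 was at 67.6% and 95.7%. For these exons all 3 mutants lay on the same side of WT.

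Other exons had E1126G on one side of WT and both slow mutants on the other. The 39-nt exon of MDM4, an inhibitor of p53, at chr1:204506587-204506625, stood at 79.1% in WT, 44.1% in E1126G, 94.4% in R749H and 88.6% in H1106Y. The 51-nt exon of MTA1, a subunit of the NuRD chromatin complex, at chr14:105915696-105915746, stood at 78.9%, 50.8%, 84.7% and 88.8%. The 61-nt exon of RBM5, a splicing regulator, at chr3:50141681-50141741, stood at 65.9%, 42.3%, 77.4% and 85.9%. In RNA-seq, E1126G was also lower for MTA1 (68.5% and 34.8%) and RBM5 (87.7% and 70.4%), both called, while MDM4 had 30.3% and 16.7% and was not called. In the rising direction were ATP2B4 at 19.6%, 54.8%, 4.69% and 12.7%, ECT2, a factor of cell division, at 49.3%, 72.1%, 43.1% and 30.3%, and RBM27 at 21.2%, 43.4%, 19.3% and 8.10%. These 6 exons were selected by that order of values, as those with the largest changes in points, which is why no test is attached to it. A call in the slow mutants was not required, and RBM27 in R749H lay close to WT, at 19.3% against 21.2%. Where E1126G exceeded both others most, apart from the exons above, were C11orf54, at 27%, 65.4%, 33.8% and 29.2%, and PRRG1, a membrane protein with a Gla domain, at 63.6%, 26.4%, 55.9% and 59.0%.

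At the threshold, calls and non-calls differed little. Just inside it lay a 66-nt exon of NAV2, with 65.5% and 47.5% (Benjamini-Hochberg adjusted p = 0.0491), and a 168-nt exon of ABCC1, with 38.1% and 58.3% (Benjamini-Hochberg adjusted p = 0.0496). Just outside it lay a 63-nt exon of SLMAP, with 3.28% and 2.05% (Benjamini-Hochberg adjusted p = 0.0504), and a 129-nt exon of SH3KBP1, with 94.9% and 88.2% (Benjamini-Hochberg adjusted p = 0.0507). Another 155 rows changed by at least 1 on the log2 scale without being called. Unadjusted, 1226 rows had p under 0.05. The exon nearest the panel median was a 118-nt exon of ADARB1, an RNA-editing enzyme, with 18.1% and 14.6%.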

How the data were processed

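RNA of HEK293 Flp-in T-REx cells with WT or E1126G Rpb1 was measured by RASL-seq (3 libraries a group) and RNA-seq (2 libraries a group). Only the authors' comparisons with WT were used, in GRCh37 coordinates per the submitters' processing notes, printed 1-based. Each deposited row gives WT splicing as a natural log (inclusion over skipping products), the mutant's difference from WT as a log2 value, and an unadjusted p-value, all made by the authors. These meanings were checked on the values, since the file headers give column names alone. With the natural log, 63.9% of WT ratios were fractions of integers (relative tolerance 1e-09, denominators no larger than 300), against 0.26% with log2. The mutant ratio was such a fraction for 63.5% of rows with the change read as mutant over WT, against 5.36% with the opposite sign.

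The submitters' processing notes name Bowtie 0.12.7 and edgeR 3.7.17, and the labels' protocols name TopHat 1.4.1 for the RNA-seq reads. Which test made the deposited p-value, and whether it holds the spread between libraries, is not stated in these sources. Depth is unknown, and no value per library, confidence interval or leave-one-out fit could be had.

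Inclusion and Benjamini-Hochberg adjustment over a whole table were computed with Python 3.11.15, numpy 2.4.6, pandas 2.3.3 and scipy 1.17.1, with a threshold of 0.05, and the steps were tested on simulated data. An exon was matched to RNA-seq by position and strand, with the same neighbours where listed. Named exons were the 15 largest changes in each direction, up to 4 of the smallest adjusted p in each gene list, the largest changes by class of length and WT inclusion, genes with at least 4 measurements and 3 calls, exons called in both assays, exons opposite to or beyond both other mutants, and those at the threshold and the median. Some exons that these rules pick are not reported here. Other genes named without values are members of a list. Inclusion is not corrected for the 2 junctions of an included exon or for probe efficiency. Symbols came from a table of gene identifiers, and 25 rows had none. The comparison, the gene lists and the rules were chosen with earlier results of these data known.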

Additional observations from a re-analysis of the deposited data

How the results depend on the processing

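No paired analysis was possible because the tables hold no value per library, and for the same reason no library could be left out. The calls (1098; 777 lower, 321 higher) stayed within 1.5 times under thresholds of 0.01 and 0.1, 1 row per exon position, exons with an RNA-seq row, 1 event per gene, and 1 row per measurement (added after the data were seen). With a Bonferroni adjustment there were 604 calls, 446 lower and 158 higher (26.2% higher). With a change of at least 10 points required there were 414, 317 lower and 97 higher (23.4%). Restricted to WT inclusion of 5% to 95%, 735 of 1413 rows were called, 210 of them higher. Tested against the panel median, 535 were higher, or 50.05% of 1069 calls, a balance that the centring brings about. The median of -0.37 was -0.66 in percentage points and -0.11 among rows that were not called. For exons of at most 100 nt it moved from -0.62 to -0.71 at WT inclusion of 5% to 95% and to -0.21 among rows not called. The 170 exons that moved the same way in both assays became 97 at a threshold of 0.01, and 168 with the same neighbours required. Of 167 named exons, 14 lost and 8 gained a call against the median and 1 reversed: ADARB1, to 0.00017 on the log2 scale.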

Other observations

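Exons near an end of the scale also moved. Among exons included at under 5% in WT, the largest fall was in SLK, a kinase of the actin skeleton, at a 93-nt exon with 4.61% in WT and 0.949% in E1126G. Among those at 5% to 20%, a 70-nt exon of DNMT3B, a DNA methyltransferase, went from 17.8% to 2.12%. MAGI1, a scaffold of tight junctions, lost both of its exons on the panel, from 38.8% to 5.72% (84 nt) and, named after its values were seen, from 43.7% to 21.8% (36 nt). In the other direction, a 195-nt exon of GABPB1, a transcription factor subunit, rose from 66.8% to 92.1%, and a 186-nt exon of COQ8A, a factor of coenzyme Q synthesis, from 95.4% to 98.5%. Of the microexons, that of SUCO (21 nt) had the largest gain, from 62.9% to 83.0%.

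Among p53 and apoptosis genes, besides the MDM4 exon described above (79.1% and 44.1%), the calls with the smallest adjusted p were changes of about 1 point. MDM2, the ubiquitin ligase of p53, had 2.09% and 1.16% at an 87-nt exon and 96.5% and 97.4% at one of 134 nt, and BCL2L13 had 97.7% and 98.7% at a 157-nt exon. Among genes with several measurements, SLMAP fell in each of its 4 called measurements, and BTRC, a substrate receptor of a ubiquitin ligase, in each of 3. Against the panel median 2 of those 4 and 2 of those 3 were no longer called. SLC25A26, the mitochondrial carrier of S-adenosylmethionine, rose in each of 3 called measurements, none over 1 point. PBRM1, a subunit of a chromatin remodelling complex, rose at a 156-nt exon with either neighbour (79.1% to 85.2% and 96.9% to 98.5%) and fell at a 45-nt exon (1.71% to 0.792%). Its 165-nt exon next to the first fell from 31.8% to 26.2% with the 156-nt exon as a neighbour and had 48.5% and 52.1%, not called, between the outer exons. Against the panel median the former was no longer called and the latter was called higher.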
